A study of Drosophila melanogaster with 12 samples.

Results

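The change that loss of CTCF brings to larval nervous system mRNA was set against the change seen in Cp190 mutants, gene by gene. For each gene the log2 fold change of Cp190KO against its own wildtype (WT) control was subtracted from that of CTCF0 against its own WT control, and this difference was tested. All 12 libraries of the series entered, in 4 groups of 3, and 8954 of the 17510 genes in the files were tested because they reached at least 1 CPM (counts scaled to the total of a library) in at least 3 of the 12 libraries. RNA came from central nervous systems (CNSs) of larvae in the third instar, with 60 CNSs in each replicate.

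CTCF0 larvae lack both the maternal and the zygotic supply of CTCF. Their mothers carried 2 CTCF knockout alleles and a genomic CTCF transgene between FRT sites, which a nanos-driven FLP recombinase removed in the germline. Cp190KO larvae were transheterozygous for 2 independently made alleles in which the Cp190 reading frame had been replaced by a DsRed marker cassette, and maternal Cp190 may have remained in them. The WT control of both experiments was the w1118 strain, which lacks the function of the eye colour gene white. The CTCF0 experiment was read as pairs of 100 bp and the Cp190KO experiment as single reads of 150 bp, so that each mutant was compared only with the control of its own run. Dissected CNSs were pooled within a replicate, and a change in a few cells cannot be told apart from a small change in many, nor fewer cells of a type from less RNA per cell.

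Insulator proteins bind DNA at the borders of chromosomal domains and limit which enhancers reach which promoters. CTCF is a zinc finger protein that reads a DNA motif itself. Cp190 carries a BTB domain and zinc fingers and is brought to chromatin by CTCF and by several other DNA-binding proteins, so that the sites of both proteins overlap in part. Genes that respond to loss of one protein and not of the other are therefore of interest for the share of the work that each does alone.

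Reads on genes numbered 12638505 to 15650376 in CTCF0 libraries and 11652548 to 17935428 in their WT libraries. They numbered 16678885 to 21522453 in the libraries labelled Cp190KO and 16126996 to 20410398 in their WT. A count of 3, taken as the least that a library can show, corresponded to 0.139 to 0.257 CPM, and this floor covers counting error only. Cp190KO replicate 3 listed 375 genes with 1 to 3 counts, against 1738 to 2199 in each of the other 11 libraries, so that genes near the floor were more often at 0 there. Cp190KO replicate 2 held the lowest level of each of 4 neuronal markers among the 12 libraries. Of these, brp, a scaffold of the presynaptic active zone, was at 24.2 CPM there, against 213 and 109 CPM in the other 2 libraries labelled Cp190KO and 67.5 to 123 CPM in their WT. Results below are given without these libraries where that matters.

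CTCF (FBgn0035769) lies on chromosome 3L from 7353578 to 7356713 of the dm6 assembly. It was at 2.22, 1.60 and 2.65 CPM in CTCF0 CNSs, against 38.1, 40.3 and 40.4 CPM in their WT. It was at 39.8, 59.8 and 35.6 CPM in the libraries labelled Cp190KO, against 42.1, 29.9 and 35.8 CPM in their WT. The log2 difference between both changes was -4.52 (SE 0.35, adjusted p = 1.89e-05), and CTCF was low in the 3 CTCF0 libraries alone. Cp190 (FBgn0000283, 3R from 15270432 to 15275241) did not tell its groups apart. It was at 40.8, 31.1 and 26.1 CPM in the libraries labelled Cp190KO, against 49.4, 26.02 and 40.8 CPM in their WT (log2 fold change -0.25, SE 0.28, adjusted p = 0.755). It was at 38.4, 29.6 and 46.3 CPM in CTCF0 CNSs, against 36.9, 21.7 and 25.5 CPM in their WT. Counts over the whole gene include transcribed parts outside the deleted reading frame, and where the reads lay was not examined, so the counts do not check the label. The libraries are therefore called by their label.

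In the test of the difference, 127 genes were called at an adjusted p under 0.05 and a fold over 1.5, which was 1.42% of the genes tested (quasi-likelihood test of edgeR, Benjamini-Hochberg adjusted). The CTCF0 change lay above the Cp190KO change in 81 genes (0.905%) and below it in 46 genes (0.514%), and 617 genes had an unadjusted p under 0.05. In the same fit, 255 genes (2.85%) were called in CTCF0 against its WT, of which 162 (1.81%) were higher and 93 (1.04%) lower. For the libraries labelled Cp190KO against theirs, 366 genes (4.09%) were called, 197 (2.2%) higher and 169 (1.89%) lower. The median log2 difference over all genes tested was -0.05. Without CTCF0 replicate 1, the same genes gave 77 calls of the difference, and without WT replicate 2 of the Cp190KO experiment they gave 76. Each replicate is a pool of CNSs, so that p-values measure the spread between these pools.

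The 127 genes fell into 6 patterns by the calls of the separate changes. Expression was higher in CTCF0 and not called in the libraries labelled Cp190KO for 29 genes, and lower in CTCF0 alone for 15 genes. It was higher in the libraries labelled Cp190KO and not called in CTCF0 for 28 genes, and lower there alone for 45 genes. Another 6 genes moved in opposite directions in both mutants, and 4 genes moved the same way but by different amounts. The missing call in one mutant did not by itself show a lack of change. The 95% interval of the Cp190KO change lay wholly within a fold of 1.5 for 8 of the 44 genes called in CTCF0 alone: CG3358, CG1354, Rdh1, AOX3, Trax, Pat1, Cyp9f3 and IntS12. The interval of the CTCF0 change did so for 7 of the 73 genes called in Cp190KO alone: Prip, Pcyt1, Atox1, CG17230, dia, CG2818 and Tep2.

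**Figure D1:**
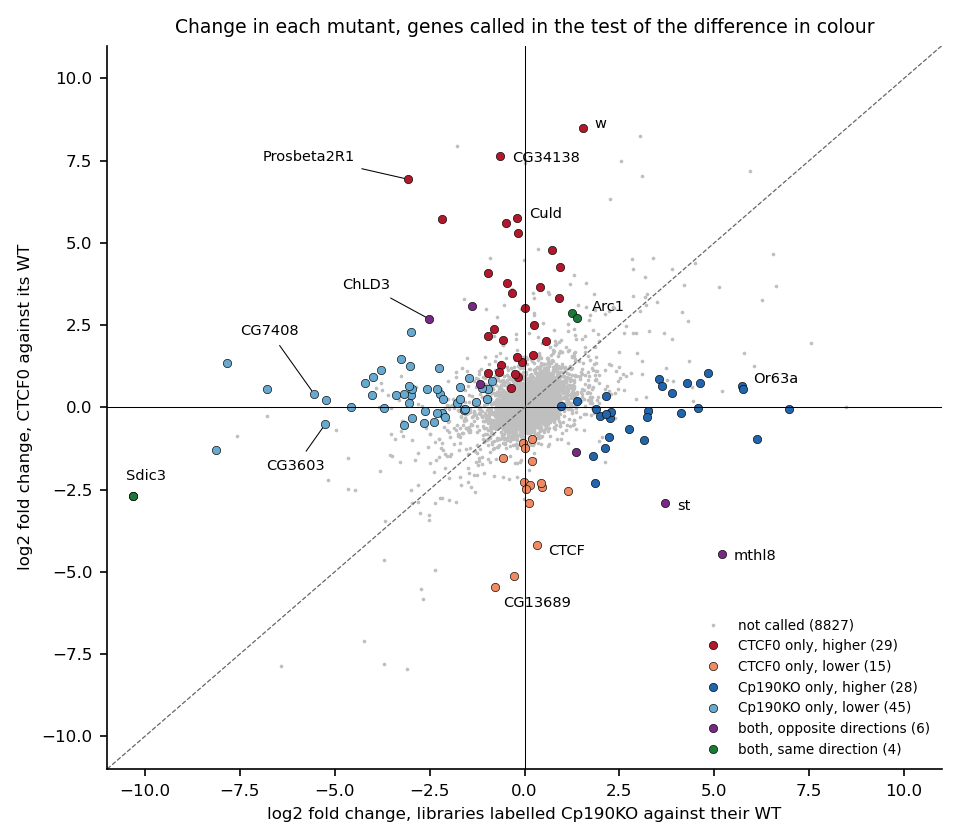
Each point is one of the 8954 genes tested, with the log2 fold change of the libraries labelled Cp190KO against their WT on the x axis and that of CTCF0 against its WT on the y axis. Coloured points are the 127 genes called in the test of the difference, by pattern, and the dashed line marks equal change; most coloured points lie along one of the axes.

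Genes that rose in CTCF0 alone included some at low levels and some close to silent in the other 9 libraries. Culd (FBgn0035880, 3L from 8352355 to 8356296) encodes a transmembrane protein with CUB and LDLa domains that is known for the trafficking of rhodopsin in photoreceptors. It was at 388, 267 and 396 CPM in CTCF0 CNSs, against 8.02, 5.84 and 5.66 CPM in their WT. The libraries labelled Cp190KO held 6.66, 8.03 and 9.23 CPM, against 8.62, 8.80 and 9.74 CPM in their WT. Only the 3 CTCF0 libraries were high, and the log2 difference was 5.93 (SE 0.30, adjusted p = 3.22e-07). CG15506 (FBgn0039686, 3R from 29718663 to 29722388) was at 39.6, 37.0 and 44.4 CPM in CTCF0 CNSs, against 0.824, 0.751 and 0.898 CPM in their WT. It was at 0.891, 1.034 and 1.73 CPM in the libraries labelled Cp190KO, against 2.10, 1.4996 and 1.48 CPM in their WT, so that no CTCF0 library overlapped any other (log2 difference 6.09, SE 0.41).

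CG34138 (FBgn0083974, 3R from 19634949 to 19635879) was at 21.1, 16.4 and 20.5 CPM in CTCF0 CNSs, and every one of the other 9 libraries held 0.255 CPM or less. The white gene w (FBgn0003996, X from 2790599 to 2796466) encodes a subunit of the ABC transporters that carry pigment precursors and serves as the marker of many transgenes. It was at 116, 114 and 93.5 CPM in CTCF0 CNSs, against 0.220, 0.167 and 0.483 CPM in their WT, while the libraries labelled Cp190KO held 0.187, 0.852 and 0 CPM, against 0.0513, 0.130 and 0.153 CPM in theirs. Its log2 difference of 6.96 had an SE of 1.54 and an adjusted p of 0.0494, and w was called in 2 of the 12 fits that each left out 1 library. Which copy or part of w the reads came from was not examined.

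The genes nompA and IFT52, known from sensory dendrites and cilia, rose in CTCF0 alone. nompA (FBgn0016047, 2R from 11310335 to 11318676), which encodes the extracellular protein that ties sensory dendrites to the cuticle, was at 18.2, 15.5 and 12.04 CPM in CTCF0 CNSs, against 0.439, 0.250 and 0.414 CPM in their WT. It was at 0.281, 0.487 and 0 CPM in the libraries labelled Cp190KO, against 0.513, 0.130 and 0.204 CPM in theirs (log2 difference 5.49, SE 0.95, adjusted p = 0.0103). IFT52, a subunit of the trains that carry cargo along the cilium, averaged 43.3 ± 4.12 CPM in CTCF0 CNSs and 1.57 ± 0.221 CPM in their WT (SD, n = 3 each). It averaged 2.19 ± 0.784 CPM in the libraries labelled Cp190KO and 1.32 ± 0.452 CPM in their WT, and the log2 difference was 4.05 (SE 0.45). Both genes were high in CTCF0 libraries only. B9d1, a gene of the ciliary transition zone that was chosen after its values were seen, rose in the libraries labelled Cp190KO instead (log2 fold change 6.13, SE 0.63), at 5.20, 8.76 and 6.78 CPM against 0.0513, 0.0652 and 0.153 CPM in their WT. It was at 0.139 CPM or less in CTCF0 CNSs, against 0.250 CPM or less in theirs.

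2 neighbouring aldehyde oxidases, enzymes that oxidize aldehydes to acids, rose in CTCF0 alone and were chosen after their values were seen. AOX1 (FBgn0267408, 3R from 15532137 to 15537292) was at 322, 509 and 324 CPM in CTCF0 CNSs, against 32.4, 28.1 and 24.2 CPM in their WT. It was at 31.1, 52.4 and 39.0 CPM in the libraries labelled Cp190KO, against 54.8, 75.6 and 39.9 CPM in theirs, which overlapped (log2 difference 4.24, SE 0.39, adjusted p = 6.03e-05). AOX3 (FBgn0038349, 3R from 15542748 to 15548188) changed less. Its log2 fold change was 1.39 (SE 0.21) in CTCF0 and -0.06 (SE 0.20) in the libraries labelled Cp190KO, but AOX3 also differed between the WT controls, by -0.97 on the log2 scale in the control of CTCF0 minus that of Cp190KO.

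Genes known from the testis were also found here. Prosbeta2R1 (FBgn0029812, X from 5808954 to 5810158), a testis form of a proteasome core subunit, was at 11.04, 11.3 and 13.3 CPM in CTCF0 CNSs, against 0.110, 0.167 and 0 CPM in their WT. All 3 libraries labelled Cp190KO were at 0, against 0.103, 0.0652 and 0 CPM in their WT, so that no fold can be given for that experiment and the fitted log2 difference of 9.99 depends on the prior count. The call of Prosbeta2R1 was lost without replicate 1 or 2 of the WT of Cp190KO. Its neighbour AgmNAT, an agmatine N-acetyltransferase whose start lies 6866 bp away on the opposite strand, rose with it (log2 fold change 2.37, SE 0.36 in CTCF0, and -0.80, SE 0.38 in the libraries labelled Cp190KO). can (cannonball), a testis form of a TFIID subunit, was at 8.47, 4.11 and 14.4 CPM in CTCF0 CNSs, against 1.099, 1.42 and 0.829 CPM in their WT. The paper describes a transcript antisense to can at this locus in CTCF0 CNSs. The strand setting of the counting is not given in the sources used here, so reads of can and of that transcript cannot be told apart. The odorant receptor gene Or67d, which starts 6093 bp from can on the opposite strand, was at 8.88, 6.33 and 14.4 CPM in CTCF0 CNSs, against 0.659, 1.08 and 0.621 CPM in their WT. For can and Or67d the libraries labelled Cp190KO stayed between 0.298 and 0.891 CPM. Their calls were fragile: with the same genes tested, can was called in 1 and Or67d in 5 of the 12 fits that left out 1 library. The male-specific RNA roX1 ranged from 202 to 839 CPM in CTCF0 libraries, from 328 to 530 CPM in their WT, from 56.2 to 349 CPM in the libraries labelled Cp190KO and from 196 to 244 CPM in theirs, and the part of the share of males in these results was not tested.

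Some enzyme genes changed in CTCF0 alone by smaller amounts, and in both directions. GstE1, a glutathione transferase, was at 58.3, 83.2 and 62.2 CPM in CTCF0 CNSs, against 30.2, 39.6 and 28.4 CPM in their WT. It was at 26.3, 45.2 and 31.4 CPM in the libraries labelled Cp190KO, against 72.1, 82.4 and 46.6 CPM in theirs, and these groups did not overlap either although that change was not called (log2 difference 2.02, SE 0.36, adjusted p = 0.0139). The cytochrome P450 gene Cyp305a1 was at 6.83, 9.67 and 8.10 CPM in CTCF0 CNSs, against 2.25, 2.34 and 0.898 CPM in their WT (log2 difference 3.11, SE 0.54). On the log2 scale the WT controls differed by -1.03 for GstE1 and by -1.20 for Cyp305a1, without a call. These values are the control of CTCF0 minus that of Cp190KO. Other members of the pattern, chosen after their values were seen, were Irc, a catalase known from gut immunity (log2 difference 1.71, SE 0.36), and Rsod, a relative of superoxide dismutase (log2 difference 1.75, SE 0.36). Each was called in 3 of the 12 fits that left out 1 library. Trx2, a thioredoxin, Cyp9f3, a cytochrome P450, and alpha-Est5, an esterase, fell in CTCF0 alone, with log2 differences of -0.99 (SE 0.22), -1.24 (SE 0.26) and -2.52 (SE 0.49), and all 3 were also chosen after their values were seen. They were called in 2, 3 and 5 of the 12 fits that left out 1 library. Of the 29 genes that rose in CTCF0 alone, 11 were called in all 12 of these fits with the same genes tested, and 17 were called without Cp190KO replicate 3.

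The 15 genes that fell in CTCF0 alone were led by CTCF itself and by genes of varied function. CG3358 (FBgn0033117, 2R from 6923366 to 6924929) was at 5.67, 4.66 and 4.69 CPM in CTCF0 CNSs, against 38.6, 36.4 and 38.3 CPM in their WT. It was at 33.1, 46.9 and 36.1 CPM in the libraries labelled Cp190KO, against 35.9, 39.9 and 32.2 CPM in theirs. The log2 difference was -3.02 (SE 0.26, adjusted p = 3.75e-05), and the 95% interval of the Cp190KO change ran from -0.28 to 0.49. GILT3 (FBgn0039098, 3R from 23677358 to 23678421), a member of the family of lysosomal thiol reductases, was at 2.86, 4.66 and 2.52 CPM in CTCF0 CNSs, against 16.4, 18.9 and 18.5 CPM in their WT. It was at 47.6, 60.6 and 41.5 CPM in the libraries labelled Cp190KO, against 36.3, 41.3 and 30.5 CPM in theirs. The log2 difference was -2.89 (SE 0.34), but the WT controls themselves differed by -1.01 on the log2 scale, in the control of CTCF0 minus that of Cp190KO.

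CG13689 fell almost to the floor in CTCF0 CNSs, at 0.643, 0.487 and 0.204 CPM against 20.05, 19.4 and 21.5 CPM in their WT. The libraries labelled Cp190KO were at 9.33, 9.86 and 7.02 CPM, below all 3 of their WT at 14.2, 16.6 and 14.0 CPM, without a call (log2 fold change -0.77, SE 0.25). Cyt-c1L, a paralog of the cytochrome c1 subunit of complex III, was at 0.175, 0.487 and 0.544 CPM in CTCF0 CNSs, against 2.14, 3.09 and 1.80 CPM in their WT. It was at 2.95, 4.14 and 3.04 CPM in the libraries labelled Cp190KO, against 1.44, 1.43 and 1.68 CPM in theirs, so that the groups stood apart in opposite directions, although the second change was not called (adjusted p = 0.112). The log2 difference of Cyt-c1L was -3.68 (SE 0.56).

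Pms2, a DNA mismatch repair gene, and the noncoding RNA lncRNA:CR44458 start 175 bp apart on opposite strands of chromosome 2R, and both fell in CTCF0 alone. Pms2 (FBgn0011660, 15368074 to 15371520, chosen after its values were seen) was at 2.10, 1.18 and 1.77 CPM in CTCF0 CNSs, against 10.1, 8.68 and 6.63 CPM in their WT. It was at 13.9, 10.3 and 11.5 CPM in the libraries labelled Cp190KO, against 8.83, 8.09 and 9.74 CPM in theirs (log2 difference -2.74, SE 0.37, adjusted p = 0.00162). lncRNA:CR44458 (FBgn0265651, 15371695 to 15372595) held 2 counts in the 3 CTCF0 libraries together and 80 in their WT, and its levels in the libraries labelled Cp190KO (0.952 to 1.17 CPM) lay within those of their WT (0.765 to 1.95 CPM). Rdh1, a retinol dehydrogenase that was also chosen after its values were seen, fell by 1.62 on the log2 scale in CTCF0 (SE 0.18), against a change of 0.21 (SE 0.17) in the libraries labelled Cp190KO. Of the 15 genes, 9 were called in all 12 fits that left out 1 library with the same genes tested.

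Several genes that rose in the libraries labelled Cp190KO alone were at low levels in the other 9 libraries. Or63a (FBgn0035382, 3L from 2961534 to 2963788), an odorant receptor gene, was at 12.3, 17.1 and 24.6 CPM in these libraries, against 0.257, 0.391 and 0.357 CPM in their WT. CTCF0 CNSs held 0.409, 0.348 and 0.408 CPM, against 0.275, 0.250 and 0.207 CPM in their WT. The 3 libraries labelled Cp190KO stood far above the other 9, and the log2 difference was -5.08 (SE 0.63, adjusted p = 0.000781). Both cuticle protein genes of the pattern carry a chitin-binding Rebers-Riddiford domain. Cpr66D (FBgn0052029, 3L from 8640439 to 8643584) was at 19.97, 18.3 and 12.3 CPM in the libraries labelled Cp190KO, against 1.33, 0.652 and 0.867 CPM in their WT, and at 0.409 to 1.09 CPM in CTCF0 CNSs, against 0.604 to 0.967 CPM in theirs. Cpr73D (FBgn0036680, 3L from 16939100 to 16957689) was at 10.97, 6.45 and 11.1 CPM in the libraries labelled Cp190KO, against 0, 0.391 and 0.153 CPM in their WT. The log2 differences were -4.30 (SE 0.60) for Cpr66D and -5.20 (SE 0.99) for Cpr73D, and with the same genes tested Cpr73D was called in 8 of the 12 fits that left out 1 library.

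The serine protease genes ea and spirit and the serpin gene Spn43Ad rose in the libraries labelled Cp190KO. ea (easter; FBgn0000533, 3R from 15328729 to 15330408), the protease that cleaves the Toll ligand in the embryo, was at 8.06, 10.7 and 4.46 CPM there, against 0.821, 0.978 and 1.63 CPM in their WT. It was at 0.701, 0.696 and 0.544 CPM in CTCF0 CNSs, against 1.044, 1.59 and 0.483 CPM in theirs (log2 difference -3.40, SE 0.67). spirit (FBgn0030051, X from 8571099 to 8573593), a clip-domain protease upstream of Toll in immunity, was at 136, 106 and 112 CPM in the libraries labelled Cp190KO, against 18.8, 31.8 and 23.6 CPM in their WT. It was at 5.72, 10.4 and 4.69 CPM in CTCF0 CNSs, against 11.04, 5.42 and 9.67 CPM in theirs. The log2 difference of spirit was -2.59 (SE 0.45, adjusted p = 0.013), and its WT controls differed by -1.496 on the log2 scale, in the control of CTCF0 minus that of Cp190KO. The serpin Spn43Ad, a member of a family of protease inhibitors, averaged 6.33 ± 2.13 CPM in the libraries labelled Cp190KO and 0.650 ± 0.337 CPM in their WT (SD, n = 3 each). With the same genes tested, ea was called in 5 and Spn43Ad in 4 of the 12 fits that left out 1 library.

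Other serine protease genes fell. modSP, which acts at the top of the Toll-activating cascade, fell by 3.26 on the log2 scale in the libraries labelled Cp190KO (SE 0.47) and changed by 1.46 (SE 0.41) in CTCF0, without a call. Hayan, a protease known for melanization, fell by 3.19 there (SE 0.62) but was called in 2 of the 12 fits that left out 1 library with the same genes tested. CG9737 (FBgn0039758) and CG9733 (FBgn0039759), adjacent genes on 3R whose starts lie 3391 bp apart on the same strand, moved in opposite directions. CG9737 was at 0.187, 0.487 and 0 CPM in the libraries labelled Cp190KO, against 1.28, 1.70 and 2.50 CPM in their WT, and at 6.78, 13.9 and 3.88 CPM in CTCF0 CNSs, against 1.54, 1.25 and 2.21 CPM in theirs. CG9733 was at 7.97, 10.3 and 9.34 CPM in the libraries labelled Cp190KO, against 2.57, 2.35 and 2.09 CPM in their WT, with little change in CTCF0 (log2 fold change -0.27, SE 0.32). The log2 differences were 5.29 (SE 0.93) and -2.25 (SE 0.43). spirit, modSP, Hayan and CG9733 were chosen after their values were seen, so the directions within this set are a description.

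Pairs of neighbours rose together as well. CG31955 and CG2818, which start 255 bp apart on opposite strands of chromosome 2L, were chosen after their values were seen. CG31955 was at 30.8, 35.3 and 27.4 CPM in the libraries labelled Cp190KO, against 2.93, 3.06 and 3.87 CPM in their WT, and at 3.51, 2.37 and 2.72 CPM in CTCF0 CNSs, against 2.86, 2.75 and 3.73 CPM in theirs (log2 difference -3.36, SE 0.35). CG2818 rose by 0.97 on the log2 scale (SE 0.14) and changed by 0.03 in CTCF0 (95% interval -0.27 to 0.34). Ugt36D1 and Ugt36E1 encode UDP-glycosyltransferases, which attach sugars to lipophilic compounds, and their starts lie 3222 bp apart on 2L. Ugt36D1 was at 77.3, 112 and 92.2 CPM in the libraries labelled Cp190KO, against 27.1, 27.2 and 21.8 CPM in their WT. CTCF0 CNSs held 13.6, 21.4 and 11.02 CPM of Ugt36D1, against 17.5, 10.9 and 18.9 CPM in their WT, which overlapped, and with the same genes tested Ugt36D1 was called in 6 of the 12 fits that left out 1 library. Ugt36E1 was at 2.44, 7.79 and 2.56 CPM in the libraries labelled Cp190KO, against 0.872, 1.37 and 1.27 CPM in their WT, and at 0.234, 0.139 and 0.204 CPM in CTCF0 CNSs, against 0.934, 1.08 and 0.967 CPM in theirs. Of the 28 genes that rose in the libraries labelled Cp190KO alone, 24 were called without replicate 3 and 27 without replicate 2 of that group, with the same genes tested, but 5 were called in all 12 fits that left out 1 library.

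The largest pattern was the 45 genes that fell in the libraries labelled Cp190KO without a call in CTCF0. In CTCF0, 21 of them also stood apart from their WT, and in 31 both changes had opposite signs. CG3603 (FBgn0029648, X from 2948034 to 2949120) was at 1.08, 0.730 and 0.833 CPM in the libraries labelled Cp190KO, against 29.5, 41.9 and 31.3 CPM in their WT. It was at 10.4, 20.3 and 11.9 CPM in CTCF0 CNSs, against 20.1, 18.0 and 22.8 CPM in theirs, which overlapped (log2 difference 4.74, SE 0.41, adjusted p = 3.75e-05). CG7408 (FBgn0036765, 3L from 17879096 to 17883653) was at 0.187, 0.183 and 0 CPM, against 7.13, 7.11 and 4.64 CPM in their WT. In CTCF0 CNSs CG7408 was at 5.02, 5.64 and 8.71 CPM, against 4.72, 6.84 and 3.11 CPM in theirs, and the log2 difference was 5.95 (SE 0.71). acs (FBgn0035300, 3L from 1971638 to 1974285) averaged 0.803 ± 0.766 CPM in the libraries labelled Cp190KO and 13.6 ± 2.29 CPM in their WT, against 15.4 ± 4.65 CPM in CTCF0 CNSs and 8.17 ± 0.488 CPM in theirs (SD, n = 3 each).

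Paralogs of protein degradation factors and a ciliary gene fell as well. SkpB (FBgn0026176, 2R from 12139295 to 12140229), a paralog of the Skp1 subunit of SCF ubiquitin ligases, was at 0.281, 0.243 and 0 CPM in the libraries labelled Cp190KO, against 1.74, 1.4996 and 4.54 CPM in their WT. It was at 9.46, 11.9 and 7.69 CPM in CTCF0 CNSs, against 4.83, 3.17 and 5.18 CPM in theirs (log2 difference 4.93, SE 0.80). SkpB overlaps CG18343 on the opposite strand, and CG18343 fell too (log2 fold change -2.09, SE 0.29); since the strand setting of the counting is not given in the sources used here, reads from the overlap cannot be told apart. Rpt6R, a paralog of a proteasome ATPase that was chosen after its values were seen, was at 0 in the 3 libraries labelled Cp190KO, against 0.975, 0.717 and 3.42 CPM in their WT, at least 10.2-fold lower with 3 counts per library as the floor, or at least 5.06-fold without WT replicate 3, an alternative chosen after seeing the data. CTCF0 CNSs held 3.74, 4.80 and 3.40 CPM of Rpt6R, against 1.76, 1.17 and 1.73 CPM in theirs. Rsph3 (FBgn0052392, 3L from 6756629 to 6763246), a component of the radial spokes of motile cilia, was at 2.30, 2.43 and 1.55 CPM in the libraries labelled Cp190KO, against 17.7, 16.4 and 16.5 CPM in their WT. It was at 17.4, 22.1 and 16.5 CPM in CTCF0 CNSs, against 16.0, 13.4 and 13.5 CPM in theirs (log2 difference 3.38, SE 0.32, adjusted p = 6.03e-05).

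Other genes of this pattern included enzymes and a water channel, and of those given here all but Cyp12b2 and Cyp4e1 were chosen after their values were seen. Cyp12b2 (FBgn0034387, 2R from 18754995 to 18757083), a cytochrome P450 of the mitochondrial clade, was at 1.97, 1.83 and 0.655 CPM in the libraries labelled Cp190KO, against 11.5, 14.7 and 8.97 CPM in their WT. It was at 12.4, 15.9 and 12.2 CPM in CTCF0 CNSs, against 7.96, 11.3 and 8.36 CPM in theirs. Cyp4e1 was low throughout, at 0.187, 0.122 and 0.0595 CPM in the libraries labelled Cp190KO, against 0.513, 0.782 and 0.612 CPM in their WT. Prip, an aquaporin, fell by 2.62 on the log2 scale (SE 0.23) in the libraries labelled Cp190KO, and its CTCF0 change of -0.10 had a 95% interval of -0.56 to 0.36. Atox1, a copper chaperone, fell by 1.60 (SE 0.16), with a CTCF0 change of -0.09 (interval -0.44 to 0.25). Pcyt1, which makes the activated choline of membrane lipids, fell by 1.00 (SE 0.13), with a CTCF0 change of 0.24 (interval -0.04 to 0.52). Each of these 3 genes therefore fell in the libraries labelled Cp190KO while a fold of 1.5 lay outside the interval in CTCF0. Of the 45 genes, 24 were called in all 12 fits that left out 1 library with the same genes tested, and 38 were called without Cp190KO replicate 3.

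**Figure D2:**
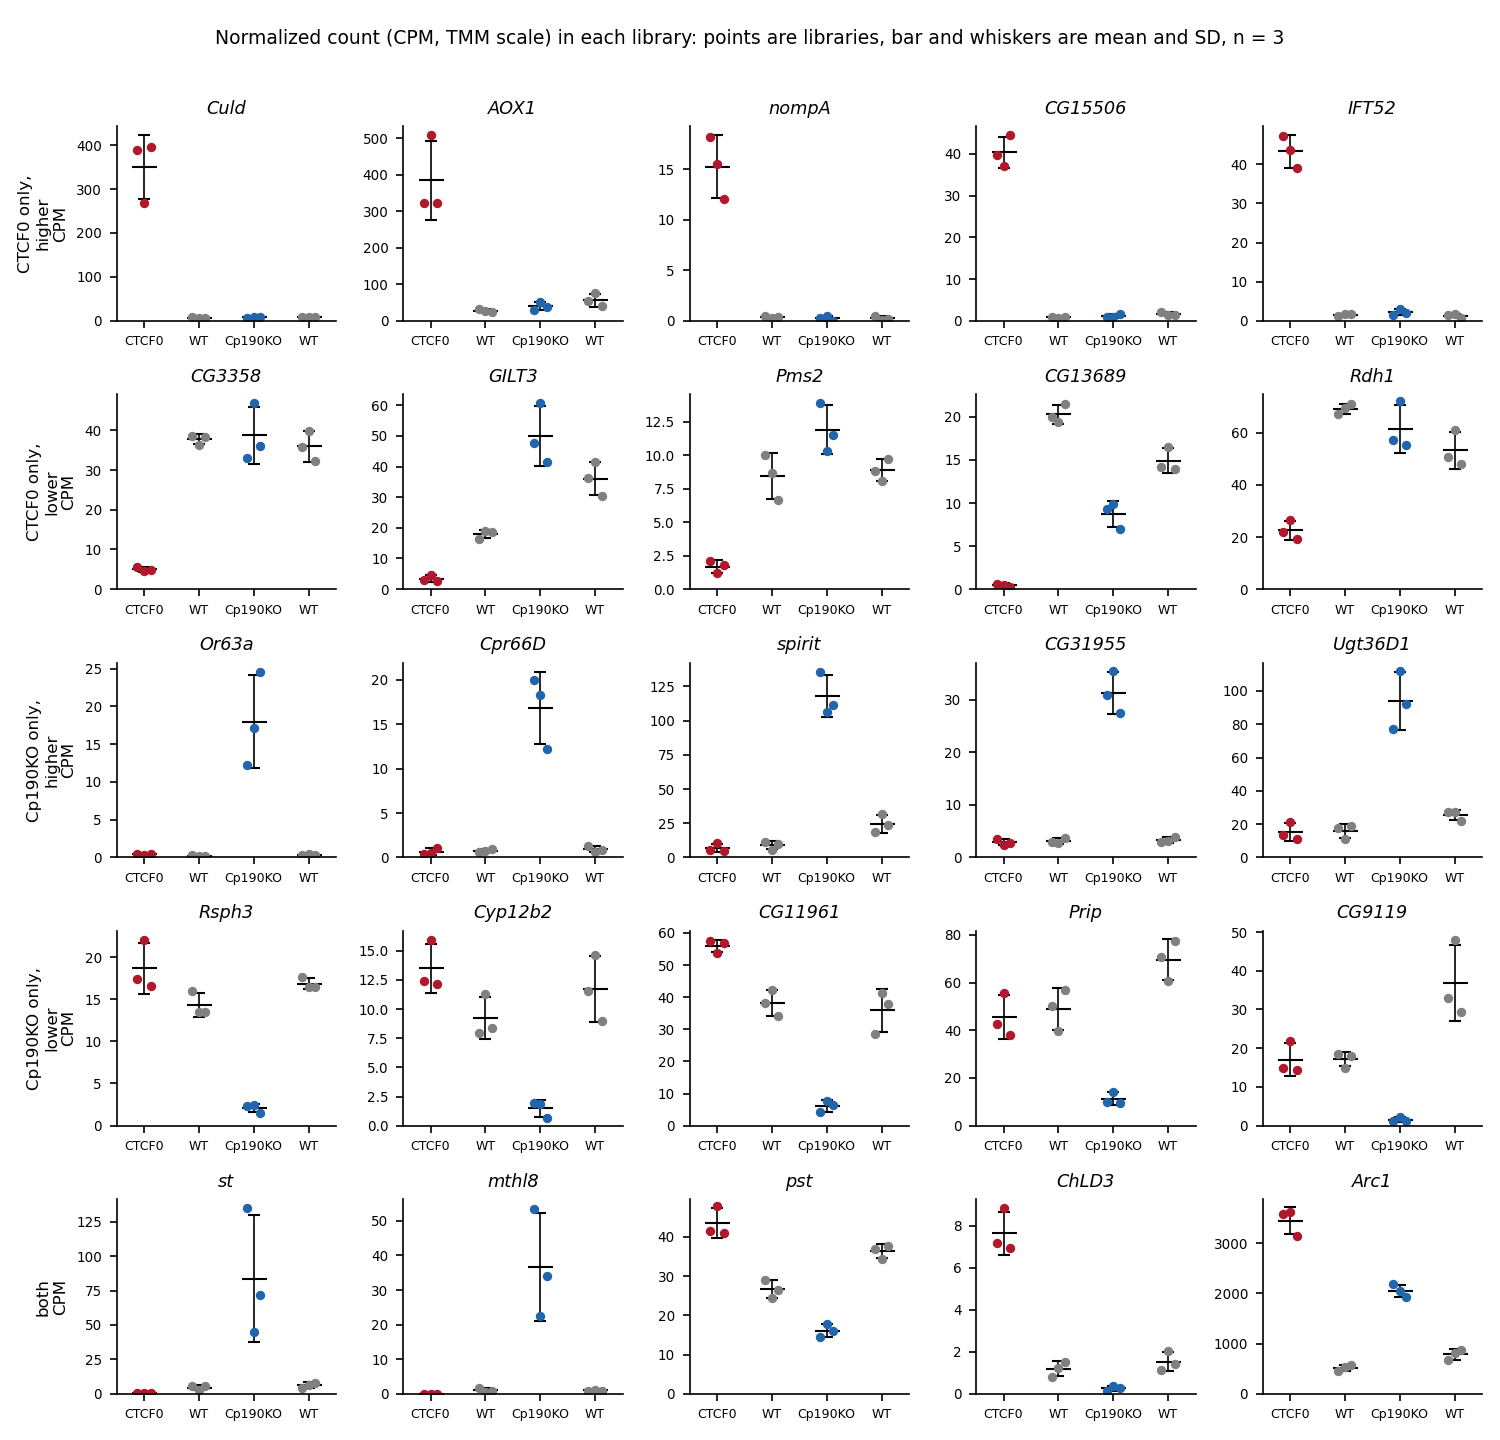
Normalized counts (CPM, linear axes from 0) of 25 genes in the 12 libraries, with rows by pattern, and CTCF0, its WT, Cp190KO and its WT from left to right in each panel. In the upper 4 rows the change was called in one mutant, as for Culd (267 to 396 CPM in CTCF0) and Rsph3 (1.55 to 2.43 CPM in Cp190KO), although the other mutant can also stand apart from its WT, as for CG13689 (7.02 to 9.86 CPM in Cp190KO). In the last row both changes were called.

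For 6 genes both changes were called, with opposite signs. st (scarlet; FBgn0003515, 3L from 16497651 to 16500460), the ABC transporter subunit that pairs with white, was at 0.467, 0.974 and 0.408 CPM in CTCF0 CNSs, against 5.55, 2.50 and 5.80 CPM in their WT. It was at 135, 44.6 and 72.0 CPM in the libraries labelled Cp190KO, against 4.21, 6.78 and 8.16 CPM in theirs, and the log2 difference was -6.63 (SE 0.71, adjusted p = 0.00034). mthl8 (FBgn0052475, 3L from 22428 to 26308), a receptor of the methuselah family, was at 0.117, 0 and 0 CPM in CTCF0 CNSs, against 1.65, 0.667 and 0.898 CPM in their WT. It was at 53.5, 22.6 and 34.0 CPM in the libraries labelled Cp190KO, against 0.770, 1.24 and 0.969 CPM in theirs. ChLD3 (FBgn0032598, 2L from 16738850 to 16742610), a chitin deacetylase-like gene, moved the other way, at 7.19, 8.84 and 6.94 CPM in CTCF0 CNSs against 0.824, 1.25 and 1.52 CPM in their WT, and at 0.141, 0.365 and 0.298 CPM in the libraries labelled Cp190KO against 1.13, 2.02 and 1.43 CPM in theirs. Its log2 difference was 5.19 (SE 0.56).

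pst (pastrel; FBgn0035770, 3L from 7357275 to 7360263), a gene of antiviral resistance, starts 3550 bp from CTCF on the same strand and was chosen after its values were seen. It was at 41.5, 48.0 and 41.1 CPM in CTCF0 CNSs, against 29.0, 24.5 and 26.5 CPM in their WT, and at 14.5, 17.8 and 16.1 CPM in the libraries labelled Cp190KO, against 37.0, 34.4 and 37.8 CPM in theirs. No library of either mutant overlapped its WT, and the log2 difference was 1.87 (SE 0.23). The paper names a knocked-in DsRed marker at the CTCF locus of CTCF0 mutants, and its part in the level of pst was not tested. Tsp, which encodes thrombospondin of the tendon matrix, rose by 3.07 on the log2 scale in CTCF0 (SE 0.25) and fell by 1.39 in the libraries labelled Cp190KO (SE 0.27). The last of the 6, the histone gene copy His2B:CG33880, belongs to a repeated cluster of near-identical copies, and its level is uncertain for that reason. Its WT controls differed by 1.67 on the log2 scale, in the control of CTCF0 minus that of Cp190KO, against a log2 difference of -2.72 (SE 0.46). With each library left out in turn and with replicate numbers as a block, all 6 genes stayed called.

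Of the 4 genes that moved the same way, Arc1, the capsid-forming immediate early gene of neurons, and the neighbouring annotated pseudogene CR10102 rose in both mutants and more in CTCF0. For CR10102 (log2 difference 1.61, SE 0.20) the WT controls also differed, by -0.97 on the log2 scale in the control of CTCF0 minus that of Cp190KO. Arc1 (FBgn0033926, 2R from 14357927 to 14360297) averaged 3449.9 ± 264 CPM in CTCF0 CNSs and 521 ± 55.5 CPM in their WT (SD, n = 3 each). It averaged 2049 ± 129 CPM in the libraries labelled Cp190KO and 787 ± 107 CPM in their WT, and the log2 difference was 1.35 (SE 0.22, adjusted p = 0.00588). The WT controls of Arc1 differed by -0.59 in the same order, without a call. With replicate numbers as a block, Arc1 was not called. Sdic3 and SdicA, copies of a sperm dynein intermediate chain gene on X, were at 0 in the 3 libraries labelled Cp190KO, against 8.80 to 10.8 CPM in their WT, at least 57.0-fold lower. CTCF0 CNSs held 0.935, 0.905 and 4.22 CPM of SdicA, against 11.2, 16.1 and 12.2 CPM in their WT. Reads of these near-identical copies cannot be assigned to one of them with certainty, so that both entries may stand for 1 signal. With the same genes tested, each was called in 6 of the 12 fits that left out 1 library.

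**Figure D3:**
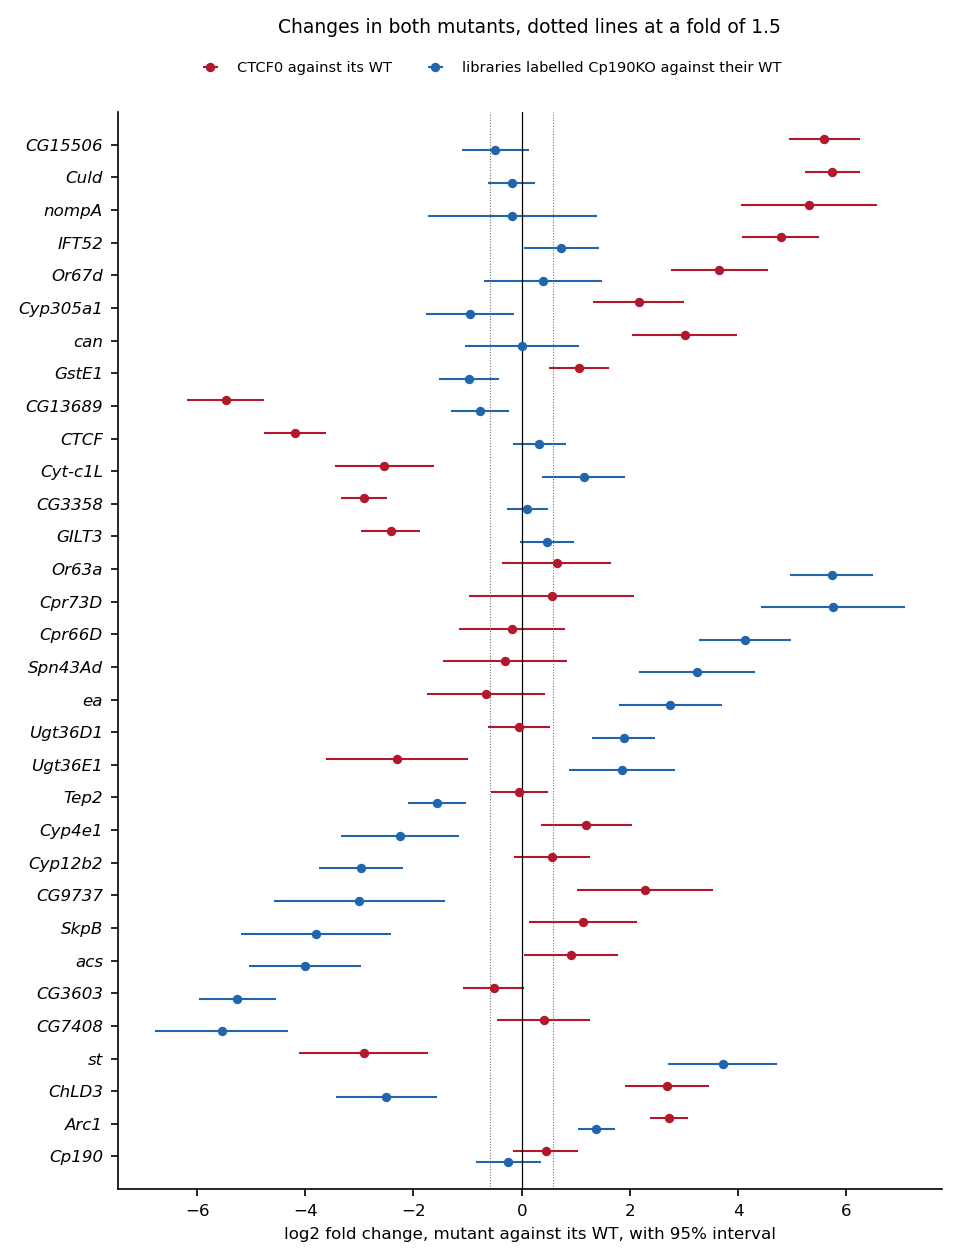
Log2 fold change of each mutant against its own WT with its 95% interval, CTCF0 above Cp190KO for each of 32 genes, and dotted lines at a fold of 1.5. Genes from CG15506 down to GILT3 were called in CTCF0 alone, and genes from Or63a down to CG7408 in the libraries labelled Cp190KO alone. Some intervals of the change without a call also left out 0. Examples are CG9737 in CTCF0 (2.29, interval 1.03 to 3.54) and Cyt-c1L in Cp190KO (1.15, interval 0.38 to 1.92). Cp190 itself lay near 0 in both (0.44 in CTCF0 and -0.25 in Cp190KO).

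Across 42 lists of gene families and functions, 11 held a gene called in the difference, and these lists are described by counts beside the 1.42% of all genes tested. Among cytochrome P450 genes, 5 of 37 tested were called (13.5%), in 4 patterns: Cyp4e1 and Cyp12b2 fell and Cyp6a17 rose in the libraries labelled Cp190KO, Cyp305a1 rose in CTCF0 and Cyp9f3 fell there. The family's median log2 fold change was 0.65 in CTCF0 and 0.32 in the libraries labelled Cp190KO, against -0.01 and 0.05 over all genes. Among UDP-glycosyltransferases and glutathione transferases, 4 of 40 were called (10%): both glutathione transferases, GstD1 and GstE1, rose in CTCF0, and both glycosyltransferases, Ugt36D1 and Ugt36E1, rose in the libraries labelled Cp190KO. In the separate changes, 13 of these 40 genes rose and 1 fell in CTCF0, where 1.81% of all genes rose and 1.04% fell. In the libraries labelled Cp190KO, 8 rose and 2 fell, where 2.2% of all genes rose and 1.89% fell, so that most members called in one mutant did not pass the test of the difference.

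In the list of cilium and axoneme genes, 4 of 29 were called (13.8%): IFT52, nompA and Culd, which rose in CTCF0, and Rsph3, which fell in the libraries labelled Cp190KO. Culd is known from photoreceptors rather than from cilia. In the separate changes, 4 members rose and 1 fell in CTCF0, and 4 rose and 2 fell in the libraries labelled Cp190KO. Of 25 cuticle protein genes, Cpr73D and Cpr66D were called, of 20 chemoreceptor and odorant-binding genes, Or63a and Or67d, and of 19 eye pigment genes, w and st. Of the 25 genes tested in the innate immunity list, Tep2 was called. That list does not hold the called genes spirit, modSP, Hayan, Irc and pst, described above for Toll activation, melanization or immunity. Tep2, a thioester protein of the complement-like family, was at 29.6, 23.5 and 19.0 CPM in the libraries labelled Cp190KO, against 45.01, 84.4 and 84.7 CPM in their WT, with a CTCF0 change of -0.04 (95% interval -0.57 to 0.48), and with the same genes tested it was called in 3 of the 12 fits that left out 1 library. Of 9 testis genes, can was called, where reads of the antisense transcript cannot be told apart.

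Noncoding RNAs named as such gave 8 calls among 206 tested (3.88%). 4 of the 8, CR10102, CR18228, CR42875 and CR44906, are pseudogenes in the annotation, where pseudogenes had 4 calls among 49 tested. Genes annotated as noncoding RNA had 3 calls above 0 and 1 below among 217 tested (1.84%), close to the 1.42% of all genes. Protein-coding genes had 119 calls among 8601 (1.38%). lncRNA:CR46350 was at 0 in the 3 libraries labelled Cp190KO, against 0.667, 0.717 and 1.07 CPM in their WT, at least 4.89-fold lower, and at 1.05, 0.766 and 1.02 CPM in CTCF0 CNSs, against 0.714, 0.667 and 0.552 CPM in theirs. lncRNA:CR45386 was at 3.51, 3.76 and 1.16 CPM in CTCF0 CNSs, and the other 9 libraries held 0.130 CPM or less.

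The gene groups that define the tissue gave no call in the difference, by edgeR at the thresholds above. Over all genes 1.42% were called, and at that share a list of the sizes below can hold no call. A list without a call is therefore not a result about its group. None was called among 29 genes of neuroblast identity and asymmetric division, 22 of temporal patterning, 22 of the Notch pathway, 25 glial genes, 26 of synaptic vesicle release, 26 channels, 40 neuropeptides, 53 wiring genes of the dpr, DIP, beat and side families or 40 cell cycle genes. None was called either among 84 cytoplasmic ribosomal proteins, 70 nuclear genes of oxidative phosphorylation, 17 cohesin and condensin genes, 19 Polycomb group genes or the 6 Hox genes tested. The median log2 difference over the Hox genes was -0.84, with medians of -0.42 in CTCF0 and 0.24 in the libraries labelled Cp190KO, none of them called. Hormone and stress genes had no call either, among 25 genes of the ecdysone response, 14 of steroid synthesis, 21 chaperones and 15 clock genes. Over all 31 lists with no call, 815 genes were tested, and the seminal fluid list had no gene that passed the filter. Of the 815 genes, 30 had an unadjusted p under 0.05, beside 617 of the 8954 genes tested. DESeq2 called 7 of the 815 and limma voom 1, beside 213 and 123 over all genes. These lists were grouped because they held no call. The 7 included zyd, a glial exchanger, Mlc2, a myosin light chain, and dib and jhamt, enzymes of ecdysone and juvenile hormone synthesis. Among the 18 insulator and architectural protein genes tested, the gene called was CTCF, which is the gene mutated in CTCF0.

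**Figure D4:**
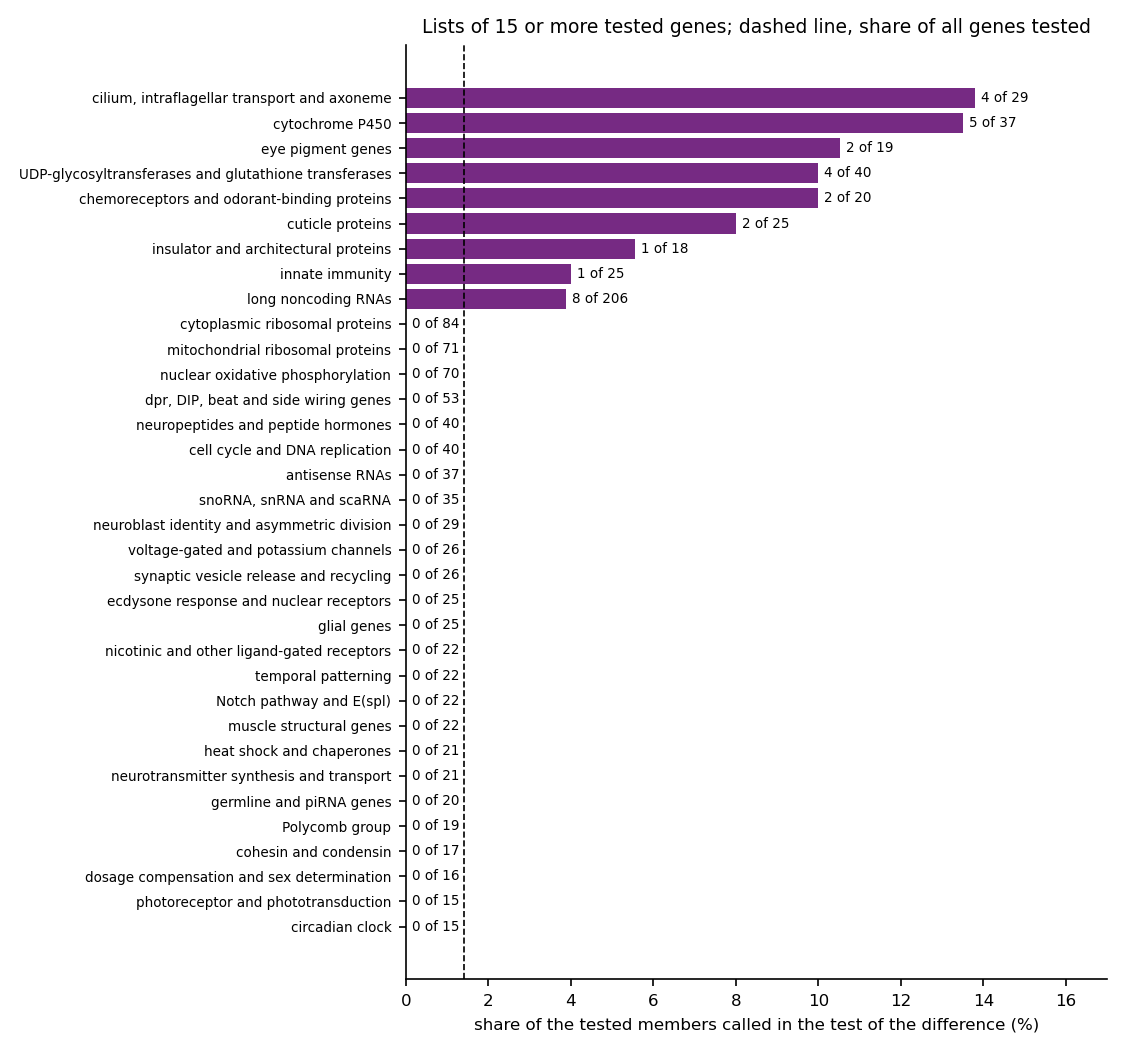
Share of the tested members of each list that was called in the test of the difference (x axis, percent), for lists with 15 or more tested genes, with the count beside each bar. The dashed line is the 1.42% of all genes tested. Above it lie 9 lists, led by the cilium list (13.8%) and the cytochrome P450 genes (13.5%), and the other lists have no call. The insulator list lies above it only through CTCF, the gene mutated in CTCF0. The cilium list counts Culd, which is known from photoreceptors rather than from cilia. Lists were chosen with earlier results of these data known.

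Genes with low expression were called more often. Calls made up 4.15% of the 313 genes with a mean under 1 CPM and 0.505% of the 1783 genes above 100 CPM. On chromosome arms the share ran from 1.17% on X to 1.59% on 3R. Within 1 Mb of CTCF, 4 of 139 genes were called (2.88%: pst, CG18417, Culd and Rsph3), and within 1 Mb of Cp190, 6 of 168 (3.57%: ea, CG6912, Trax, B9d1, AOX3 and AOX1). Wider windows held smaller shares. Within 5 Mb of CTCF 1.49% were called, against 1.40% on the rest of 3L, and within 5 Mb of Cp190 1.87%, against 1.45% on the rest of 3R. The Cp190KO change itself was called in 3 of the 168 genes near Cp190 (1.79%), against 3.59% beyond 5 Mb. Of the 6 genes near Cp190, 2 rose in the libraries labelled Cp190KO, and 4 changed in CTCF0, whose targeted gene lies on the other arm of the chromosome. There were 12 pairs of called genes with starts within 20 kb of each other, and in 10 of them both genes showed the same pattern, the near-identical copies Sdic3 and SdicA included.

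The WT controls of both experiments differed in 242 genes (2.7%), and the control of CTCF0 had the higher level in 142 (1.59%) and the lower in 100 (1.12%). Of the 127 genes called in the difference, 12 were among them (9.45%), namely GILT3, CR10102, His2B:CG33880, spirit, Esp, AOX3, CG17108, pippin, Trax, Pat1, Nepl15 and GstD1, and for these the level that the mutant was compared with differs between experiments. None of the markers of neurons, neuroblasts, glia, fat body, muscle, hemocytes, ring gland, eye disc or salivary gland was called in the difference by edgeR. At the 1.42% called over all genes, a set of 34 genes can hold no call. Of these 34 marker genes tested, 5 had an unadjusted p under 0.05, beside 617 of the 8954 genes tested, and DESeq2 called gl, Mlc2 and dib. Summed ring gland markers ranged from 85.5 to 120 CPM in CTCF0 libraries and from 74.2 to 94.8 CPM in their WT. In the Cp190KO experiment they ranged from 10.3 to 20.3 CPM in the mutant and from 8.11 to 130 CPM in WT, where 1 library was high, and the part of attached glands in the results was not tested. Summed glial markers ranged from 632 to 805 CPM in CTCF0 libraries and from 485 to 538 CPM in their WT. They ranged from 738 to 1014 CPM in the libraries labelled Cp190KO and from 666 to 709 CPM in their WT. The sum lay above WT in each experiment, but its members did not all do so. In the Cp190KO experiment repo was lower, at 110, 148 and 113 CPM in the mutant against 151, 165 and 173 CPM in WT. There alrm and moody were higher than in any WT library, and wrapper overlapped its WT. Summed muscle markers ranged from 53.4 to 64.8 CPM in CTCF0 libraries, above the 29.4 to 39.2 CPM of their WT, and from 51.4 to 118 CPM in the libraries labelled Cp190KO, around the 59.6 to 79.7 CPM of theirs. The part of glia and muscle in the results was likewise not tested.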

How the data were processed

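Poly(A)-selected mRNA of larval CNSs was sequenced in 12 libraries, and groups were taken from the sample labels. The deposited values are counts of reads per gene, which the authors made by mapping to dm6 and FlyBase gene models with Micmap and counting with HTSeq 0.9.1. The strand setting and overlap mode of the counting are not given in the sources used here. Rows that name no gene held 22.6% to 34.8% of reads and were left out. The annotation of dm6 listed 17405 of the 17510 genes.

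Counts were analysed with edgeR 4.0.16 (limma 3.58.1, R 4.3.3). A gene was tested where 3 or more of the 12 libraries reached 1 CPM. TMM factors scaled the libraries, and 1 quasi-likelihood fit with robust spread estimated the 4 group means. The contrast was CTCF0 minus its WT, less Cp190KO minus its WT. Adjusted p-values (Benjamini-Hochberg) cover all genes tested, tests were two-sided, and the standard error is the log2 fold change over the square root of F. The study fitted each mutant apart, and DESeq2 1.42.0 with the contrast above was run as an alternative. Other alternatives were scaling, filters, thresholds, limma voom, a replicate block and each library left out. Leaving out a library with the same genes tested was added after seeing the data, because a gene expressed in 1 group cannot pass the filter once 1 of its 3 libraries is gone.

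The members and lists were chosen with earlier results of these data known. The rule for named genes took CTCF and Cp190, the 5 largest log2 differences in each pattern among called genes whose mean log2 CPM was 1 or more and whose groups did not overlap, and up to 3 called members of each list. In 13 called genes, a group held 3 counts or fewer in all, and the fitted log2 difference depends on the prior count there. Promoter motifs were not analysed here, and gene lists were given no set test. On simulated data with 200 changed genes among 8954, the test of the difference recovered 10% of 2-fold and 64% of 4-fold changes, and 2.63% of its calls were unchanged genes. The simulation gave all 4 groups the same mean and spread for each gene and changed genes in CTCF0 alone. It held no difference between the WT controls and no library that departs from its group, so its shares need not hold for these data. Descriptions were made with Python 3.11.15 and pandas 2.3.3.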

Additional observations from a re-analysis of the deposited data

Results flagged for a closer look

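The change relative to WT differed between the mutants by the test of the difference itself for 127 genes (edgeR, adjusted by Benjamini-Hochberg), and the named genes among them are listed here by the log2 difference, the CTCF0 change minus the Cp190KO change. No group had enough samples for a test of single outlying libraries.

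Among genes that were higher in CTCF0 alone, the log2 difference was 9.99 for Prosbeta2R1, 8.29 for CG34138, 7.92 for lncRNA:CR45386, 6.96 for w, 6.09 for CG15506, 5.93 for Culd, 5.49 for nompA and 4.05 for IFT52. In the same pattern it was 3.26 for Or67d, 3.11 for Cyp305a1, 3.01 for can and 2.02 for GstE1. Among genes that were lower in CTCF0 alone, it was -4.85 for lncRNA:CR44458, -4.70 for CG13689, -4.52 for CTCF, -3.68 for Cyt-c1L, -3.02 for CG3358 and -2.89 for GILT3.

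For genes that were higher in the libraries labelled Cp190KO alone, the log2 difference was -5.20 for Cpr73D, -5.08 for Or63a, -4.30 for Cpr66D, -4.16 for Ugt36E1, -3.54 for Spn43Ad, -3.40 for ea and -1.93 for Ugt36D1. For genes that were lower there alone, it was 7.33 for lncRNA:CR46350, 5.95 for CG7408, 5.29 for CG9737, 4.93 for SkpB, 4.92 for acs, 4.74 for CG3603, 3.52 for Cyp12b2, 3.44 for Cyp4e1 and 1.53 for Tep2.

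Of the genes whose change passed the test in each mutant, mthl8 had a log2 difference of -9.67, st of -6.63, SdicA of 7.60, Sdic3 of 7.61, ChLD3 of 5.19 and Arc1 of 1.35.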

How the results depend on the processing

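No named gene changed direction under any alternative run. The count of genes with a different change, 127, was 44 when 1 CPM was required in all 12 libraries, 60 with the replicate block and 213 with DESeq2, which called all 127. It lay between 69 and 141 when 1 library was left out, and between 76 and 134 with the same genes tested. The count was lowered by more than 1.5 times without CTCF0 replicate 1 (69, or 77 with the same genes), without WT of CTCF0 replicate 1 (81) or 3 (76, or 79), and without WT of Cp190KO replicate 1 (82) or 2 (76). Other scalings, filters and limma voom gave 123 to 140 calls.

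The 255 calls of the CTCF0 change became 122 with 1 CPM in all 12 libraries and 149 with the replicate block, and 110 to 312 with 1 library left out (129 to 304 with the same genes). With the same genes, 141 calls came without CTCF0 replicate 1, 162 without replicate 3, 138 without WT of CTCF0 replicate 1 and 129 without its replicate 3. The 366 calls of the Cp190KO change became 160 with 1 CPM in all 12 libraries, 233 with the replicate block and 207 in a fit of those 6 libraries apart, and 229 to 416 with 1 library left out (233 to 417 with the same genes). The cause of these shifts was not tested.

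Of the 41 named genes, 15 missed the threshold with the replicate block, 5 with limma voom, 3 with library totals only and 1 with no filter, while 32 were not tested and 1 missed the threshold with 1 CPM in all 12 libraries. With the same genes tested, 25 of the 40 called kept the call whichever library was left out, and 15 lost it at least once. The call of nompA was lost without replicate 1 of the WT of Cp190KO, that of Cyp4e1 without its replicate 2, and that of lncRNA:CR45386 without any of the 3. With 3 same-numbered pairs in each experiment, the correlations below cannot decide whether the replicate numbers pair the samples. Deviations of CTCF0 libraries from their group mean correlated with those of the same-numbered WT at -0.48 to -0.15, and those of the libraries labelled Cp190KO at -0.03 to 0.44. With WT of another number they correlated at -0.25 to 0.51 for CTCF0 and at -0.29 to 0.31 for Cp190KO. The mean for Cp190KO was 0.14 with the same number and -0.07 with another.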
